A study of Mus musculus with 18 samples.

Results

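The difference between the response of an ERK3-depleted C2C12 line to differentiation medium and the response of the control line was measured gene by gene. It is the interaction of line and medium, the log2 change of the ERK3-depleted line minus the log2 change of the control line, and it rests on 12 of the 18 libraries of the series. C2C12 is an immortalised mouse myoblast line whose cells divide in growth medium (GM) and differentiate into myotubes when moved to differentiation medium. Groups of 3 poly-A RNA-seq libraries entered from control and ERK3-depleted cells, each in GM and after 2 days in differentiation medium (DM2). The control cells are a stable line carrying the control plasmid, and the ERK3-depleted cells a stable line transfected with px459-Mapk6sg, a Cas9 plasmid with a guide to Mapk6, the gene of ERK3. An MK5-depleted line, transfected with px459-Mk5sg and sampled in both media (6 libraries), enters only the estimate of the spread and one comparison at the end. All lines share the C2C12 background. The labels do not say whether a line is 1 clone or whether libraries came from separate cultures, so p-values measure only the spread between these libraries.

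ERK3 is an atypical MAP kinase, short-lived in dividing cells, that binds and activates the kinase MK5. The differentiation of myoblasts runs through an ordered programme: the regulator MyoD switches on myogenin, cells leave the cell cycle, and the genes of fusion, the sarcomere and calcium storage follow. FoxO transcription factors act on atrophy, metabolism and quiescence genes in muscle, and the series title names FoxO3 as a protein regulated through ERK3 and MK5.

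The 12 libraries were sequenced to between 23.6 and 30.1 M reads (M, 1e+06). Gene counts on the reverse strand summed to between 17.5 and 22.4 M. ERK3-depleted DM2 libraries 1 and 2 stood apart from the rest. Reads outside annotated genes made up 5.55% of library 1 and 7.73% of library 2, against 3.79% of ERK3-depleted DM2 library 3 and 2.40 to 3.07% of the other 9 libraries. Each result that follows is therefore given with all libraries and, where it is led with, without those libraries, a fit that keeps 1 ERK3-depleted DM2 library and assumes that it varies like the libraries of the remaining groups. That fit shares all its libraries with the full one and is no independent check. The part of the reads outside genes in the results was not tested beyond these fits.

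The label was checked on Mapk6 (ENSMUSG00000042688.16, chr9:75369062-75410005, minus strand, GRCm38), which 2 other gene models overlap on the same strand. In CPM (counts per 1e+06 counted reads, TMM-scaled), Mapk6 stood at 150, 119 and 124 in control GM and at 115, 105 and 133 in ERK3-depleted GM. It stood at 219, 207 and 204 in control DM2 and at 116, 96.8 and 136 in ERK3-depleted DM2. The groups overlap in GM and do not overlap at DM2. The log2 difference of ERK3-depleted over control was -0.15 ± 0.12 (SE) in GM, with an edgeR adjusted p of 0.46. It was -0.85 ± 0.12 at DM2, with an adjusted p of 2.2e-05. A guide acts on DNA and need not lower the RNA, so a library cannot be assigned by this level alone. Control cells raised Mapk6 1.60-fold on differentiation, and the change in ERK3-depleted cells was not called (interaction -0.70 ± 0.17, adjusted p = 0.0079; without the 2 libraries -0.48, adjusted p = 0.16). Mapkapk5, the gene of MK5, lay near 1 CPM in all 12 libraries and its interaction was not called (-0.06 ± 0.39, adjusted p = 0.93). Another 3 gene models overlap Mapkapk5 on the same strand, and their part in its level was not tested. Foxo3, the gene of FoxO3, lay between 62.9 and 73.2 CPM in control libraries and between 47.5 and 58.4 in ERK3-depleted libraries. The lines did not overlap in either medium, and edgeR called Foxo3 lower in ERK3-depleted cells in both. Its log2 differences were -0.34 ± 0.09 (GM) and -0.37 ± 0.09 (DM2), with adjusted p-values of 0.031 for the first and 0.0019 for the second. The Foxo3 interaction was not called (-0.04 ± 0.13, adjusted p = 0.86).

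Of 13939 genes tested, 3983 were called (edgeR quasi-likelihood test, Benjamini-Hochberg adjusted p under 0.05), which is 28.6%. The response of ERK3-depleted cells was higher than that of control for 2033 genes (14.6%) and lower for 1950 (14.0%), and 988 differed by more than 2-fold. The called genes were sorted by the responses of both lines. Blunted genes, 1327 in all (9.52% of those tested), changed in control. In ERK3-depleted cells they changed the same way by less, or in the opposite direction without a call (695 genes). The response there was not called for 1026 of the 1327. Exaggerated genes, 257 (1.84%), changed the same way by more. Reversed genes, 347 (2.49%), changed in opposite directions, both called. Newly responding genes, 1926 (13.8%), changed in ERK3-depleted cells while the control change was not called. In 126 genes (0.904%) neither response was called. These classes are definitions, and their sizes were not tested against each other.

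Without ERK3-depleted DM2 libraries 1 and 2, 155 of 14534 genes were called (1.07%), 96 higher and 59 lower. They sorted into 65 blunted, 16 exaggerated, 37 reversed and 37 newly responding genes. Of the 155, 150 were also called with all libraries, with the same sign. All 3983 genes kept their sign, in fits that share 16 of the 18 libraries. Leaving out ERK3-depleted DM2 library 3 instead gave 5835 calls. For most called genes described below the value and adjusted p-value of each fit are given, and a call holds in both fits only where both adjusted p-values are under 0.05.

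**Figure D1:**
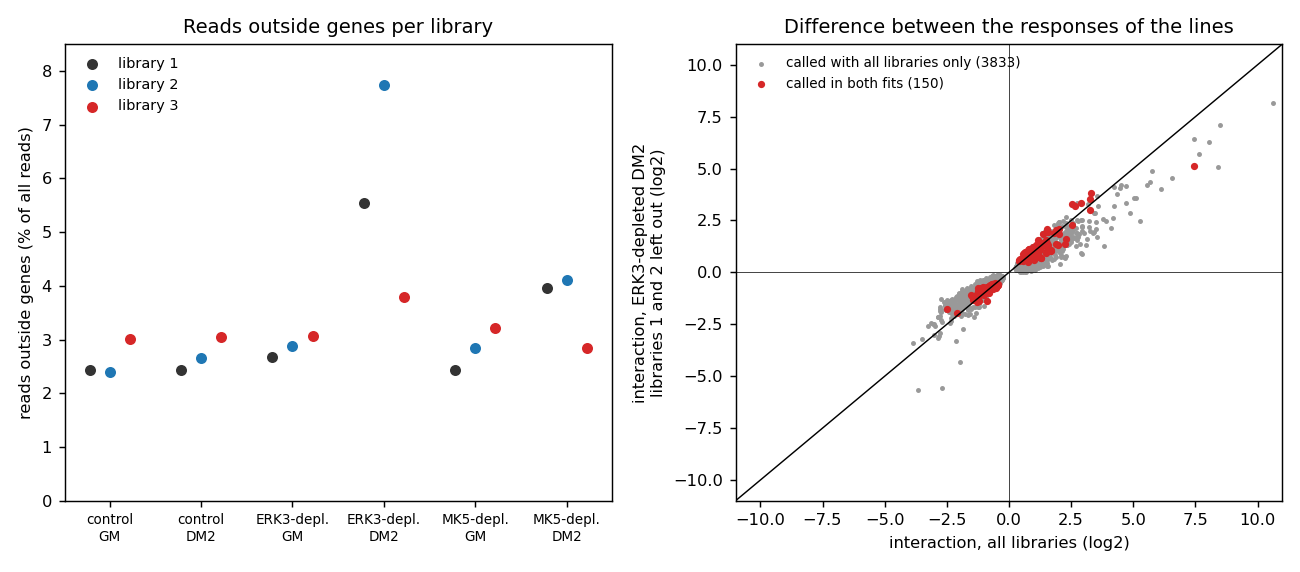
Left, reads outside genes as a percentage of all reads in each of the 18 libraries, coloured by library number; ERK3-depleted DM2 libraries 1 and 2, at 5.55 and 7.73%, lie above all others. Right, the log2 interaction of the 3983 called genes with all libraries (horizontal) and without those 2 libraries (vertical); 150 genes, in red, were called in both fits, and the line marks equal values.

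For most genes with a called interaction, the difference between the lines was called at DM2 and not in GM. It was called at DM2 only for 3545 of the 3983, in GM only for 111, in both media for 91 and in neither for 236. The interaction is the DM2 difference minus the GM difference, so these counts are no separate result. A gene not called in GM may still differ there. Across all genes tested, 6.79% were called between the lines in GM and 55.8% at DM2. The control response was called for 45.6% of genes and the ERK3-depleted response for 55.1%. The median log2 change of the blunted genes that rose in control was 0.65 in control and 0.02 in ERK3-depleted cells, and of those that fell -0.70 and 0.05. The newly responding genes that rose had medians of -0.09 and 0.71, and those that fell 0.06 and -0.63. The sorting itself sets these medians apart, so they only describe the classes. Without the 2 libraries the median interaction of the blunted genes went from -0.62 to -0.45 (rose) and from 0.66 to 0.43 (fell). For the newly responding genes it went from 0.76 to 0.41 (rose) and from -0.67 to -0.42 (fell). Of 835 genes that rose over 2-fold in control, 714 also rose in ERK3-depleted cells, 12 fell and 109 were not called; 590 had a smaller estimate there and 204 were called as blunted. Of 835 that fell over 2-fold, 546 also fell, 9 rose and 280 were not called. Of the same genes, 679 had a smaller estimate and 187 were called as blunted. Both sets were chosen by a large control estimate, which by itself favours smaller estimates in the other line. The counts of smaller estimates therefore do not measure a general blunting.

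**Figure D2:**
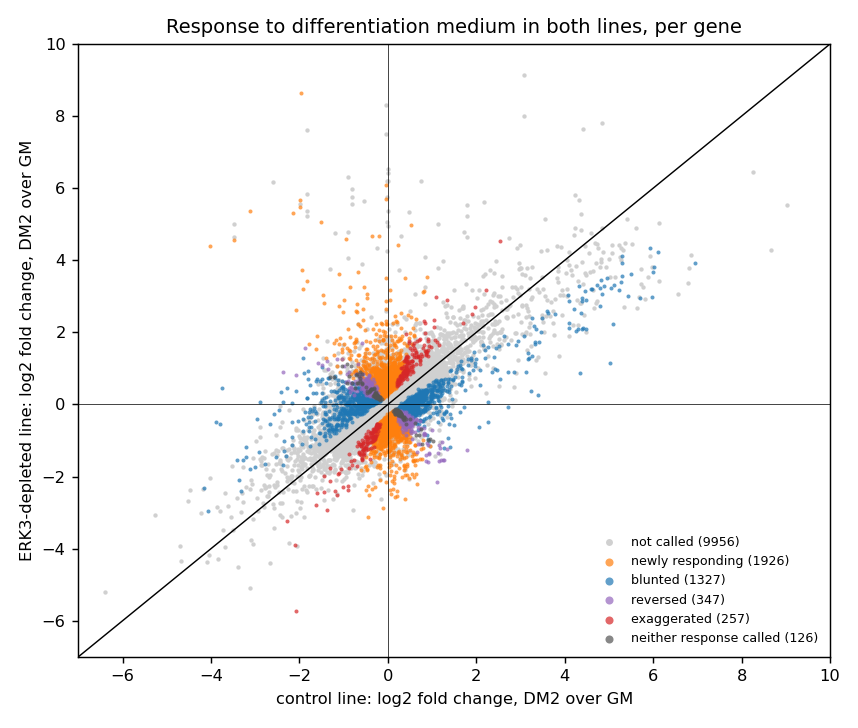
Log2 fold change of each gene from GM to DM2 in control cells (horizontal) and in ERK3-depleted cells (vertical), coloured by class, with 9956 genes not called in grey. Blunted genes (1327) lie near the horizontal axis on either side of it, 695 of them with a change in ERK3-depleted cells of the opposite sign that was not called, newly responding genes (1926) along the vertical axis, and reversed genes (347) in the upper left and lower right.

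Called genes also differed in length and base composition from the genes tested. The median length was 2360 bases over all genes tested, 1554 over genes called higher and 3065 over genes called lower, and median GC content was 50.1, 52.6 and 47.8%. With each library's trend on length and GC removed, 3640 genes were called. Among genes named below, Tmod4 (adjusted p = 0.063) and Pink1 (adjusted p = 0.067) were then not called, and the interactions of Kcnq1ot1, Map1lc3a and Synpo2 were 2.63, 0.80 and -0.33, against 5.03, 1.28 and -0.56 in the full fit. The part of length and GC in the interaction was not tested beyond that fit.

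Casq2, Myog, Insig1 and Pdk4 carry the results that follow in the most direct way: a calcium store and a regulator whose rise was smaller, and a sterol sensor and a metabolic kinase that differed in both fits. Their upstream sequence is shown because the rise or fall of each was compared, from RefSeq on GRCm38.p6, 5′ to 3′ on the gene's strand. Each run covers bases 250 to 51 before the RefSeq start. Capitals mark the E-box letters CANNTG, searched on both strands, on which the pattern reads the same. MyoD and myogenin bind sequences within this pattern, but the pattern is wider and does not single out their sites.
Casq2, chr3:102086165-102086364, plus strand: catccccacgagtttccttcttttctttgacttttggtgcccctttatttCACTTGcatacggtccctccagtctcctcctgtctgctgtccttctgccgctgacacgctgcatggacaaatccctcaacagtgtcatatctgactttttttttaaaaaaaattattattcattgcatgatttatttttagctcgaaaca
Myog, chr1:134289754-134289953, plus strand: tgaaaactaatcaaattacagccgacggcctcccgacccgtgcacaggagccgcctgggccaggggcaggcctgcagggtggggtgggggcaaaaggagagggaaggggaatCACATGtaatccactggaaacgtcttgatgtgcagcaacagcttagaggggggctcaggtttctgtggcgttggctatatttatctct
Insig1, chr5:28071162-28071361, plus strand: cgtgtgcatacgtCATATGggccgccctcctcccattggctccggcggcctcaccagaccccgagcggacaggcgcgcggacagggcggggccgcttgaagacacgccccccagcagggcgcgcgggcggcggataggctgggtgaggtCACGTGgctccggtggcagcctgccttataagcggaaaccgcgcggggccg
Pdk4, chr6:5496329-5496528, minus strand: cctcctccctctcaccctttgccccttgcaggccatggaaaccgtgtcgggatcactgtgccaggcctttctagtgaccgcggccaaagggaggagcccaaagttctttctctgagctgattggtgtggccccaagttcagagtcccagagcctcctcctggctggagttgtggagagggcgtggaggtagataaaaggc
The Casq2 and Myog windows hold 1 E-box each, beginning 200 and 138 bases before the start. The Insig1 window holds 2, beginning 237 and 101 bases before the start. The Pdk4 window holds 0. Of 27025 windows of the same length and position, 58.9% hold an E-box. The MEF2 core, CTA and TAG with 4 bases between them, occurs in 2.61% of them and the forkhead core GTAAACA in 2.51%, and neither occurs, on either strand, in the windows of these genes. The search counted only these letters and no variants, so the lack of a match does not show the lack of a site. A match is a description of letters and not a binding site.

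Several regulators of the programme rose less in ERK3-depleted cells. Of 30 myogenic regulators tested, 8 were called lower and 3 higher (36.7%, beside 28.6% of all genes), and the list's median interaction was -0.21, against 0.02 over all genes. Without the 2 libraries 2 were called lower and 0 higher, and the median was -0.14. Myogenin (Myog, ENSMUSG00000026459.5), which commits myoblasts to differentiate, stood at 22.2, 10.1 and 13.5 CPM in control GM and 493, 615 and 670 in control DM2. It stood at 42.9, 26.3 and 25.9 CPM in ERK3-depleted GM and 333, 294 and 499 in ERK3-depleted DM2. The groups do not overlap in GM, where the depleted libraries are higher, and overlap at DM2 through depleted library 3. The rise was 39.1-fold in control and 11.8-fold in ERK3-depleted cells (interaction -1.72 ± 0.48, adjusted p = 0.016; without the 2 libraries -1.32, adjusted p = 0.29). The difference between the lines was called in neither medium, at 1.06 ± 0.35 in GM and -0.66 ± 0.32 at DM2 (adjusted p = 0.080 for the first and 0.091 for the second). Without ERK3-depleted DM2 library 2 alone the Myog interaction was -1.59 (adjusted p = 0.061). MyoD (Myod1), which acts upstream of myogenin, began higher in ERK3-depleted GM, at 116, 104 and 125 CPM against 89.1, 60.8 and 68.8. At DM2 the lines overlapped, at 183, 188 and 182 CPM against 183, 218 and 201 in control. The Myod1 interaction was -0.78 ± 0.18 (adjusted p = 0.0063; without the 2 libraries -0.81, adjusted p = 0.094). Tead4, a transcription factor of muscle genes, rose 7.46-fold in control and 3.14-fold in ERK3-depleted cells (-1.25 ± 0.28, adjusted p = 0.0053; without the 2 libraries -0.98, adjusted p = 0.13). Rbm24, an RNA-binding protein of muscle splicing, had an interaction of -1.45 ± 0.48 (adjusted p = 0.032; without the 2 libraries -1.38, adjusted p = 0.24). Its call was also lost with length and GC trends removed (adjusted p = 0.058) and when any of 8 single libraries was left out (adjusted p up to 0.18). Myf5, a myoblast regulator, was not called (-0.32 ± 0.24, adjusted p = 0.33).

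The Id proteins bind MyoD's partners and hold back differentiation, and Id2 and Id3 fell in ERK3-depleted cells and had lower responses there than in control. Id2 stood at 42.5, 32.1 and 37.9 CPM in control GM and 75.3, 46.7 and 68.7 in ERK3-depleted GM. At DM2 it stood at 42.1, 44.8 and 45.6 CPM in control and 34.8, 30.1 and 28.3 in ERK3-depleted cells. The depleted libraries all lie above control in GM and all below it at DM2. Id2 fell 2.04-fold in ERK3-depleted cells and its control change was not called (interaction -1.27 ± 0.22, adjusted p = 0.0025; without the 2 libraries -1.41, adjusted p = 0.035). Id3 fell 1.5-fold in control and 2.77-fold in ERK3-depleted cells (-0.89 ± 0.24, adjusted p = 0.013; without the 2 libraries -1.36, adjusted p = 0.018).

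Of 26 fusion genes tested, 8 were called lower and 1, Rac1, higher (34.6%, beside 28.6% of all genes), with a median interaction of -0.34. Without the 2 libraries 1 was called lower, and the median was -0.17. Mymk, the gene of myomaker, the membrane protein that drives myoblast fusion (ENSMUSG00000009214.9, chr2:27061636-27072179, minus strand), stood at 12.3, 5.93 and 6.11 CPM in control GM and 327, 354 and 368 in control DM2. It stood at 16.5, 9.83 and 9.48 CPM in ERK3-depleted GM and 86.9, 63.0 and 140 in ERK3-depleted DM2. All depleted DM2 libraries lie below all control DM2 libraries, and library 3 is the highest of them. Mymk rose 43.4-fold in control and 8.08-fold in ERK3-depleted cells (interaction -2.42 ± 0.62, adjusted p = 0.012; without the 2 libraries -1.90, adjusted p = 0.22). Tmem182, a muscle membrane protein known in mouse to restrain fusion, had an interaction of -2.87 ± 0.69 (adjusted p = 0.0078; without the 2 libraries -2.15, adjusted p = 0.12). Cdh2, N-cadherin of myoblast contacts, rose in control, and its interaction of -0.66 ± 0.15 was called in both fits (adjusted p = 0.0057, and 0.044 without the 2 libraries). With length and GC trends removed it was -0.39 and not called (adjusted p = 0.063). Dock1, an activator of Rac in fusing cells, changed by -0.15 on the log2 scale in control, which was not called, and by -0.75 in ERK3-depleted cells (interaction -0.60 ± 0.18, adjusted p = 0.021; without the 2 libraries -0.34, adjusted p = 0.33).

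The sarcomere genes still rose in ERK3-depleted cells, but many by less. Of 50 tested, 47 rose in control and 48 in ERK3-depleted cells, with median log2 changes of 4.01 and 3.02. The interaction was called for 46% of the list, beside 28.6% of all genes. In the interaction 19 were called lower and 4 (Tmod4, Ankrd1, Tpm2 and Tpm1) higher, and the median was -0.85 (-0.69 without the 2 libraries, where 0 were called in either direction). The median difference between the lines was 0.72 in GM, where depleted cells were higher, and -0.24 at DM2. Between the lines, 5 of these genes were called higher and 0 lower in ERK3-depleted GM. At DM2 15 were called higher and 13 lower in ERK3-depleted cells, so the list was not lower there as a whole. The mean log2 CPM of the list was 2.26, 1.79 and 1.74 in control GM and 2.93, 2.27 and 2.36 in ERK3-depleted GM. It was 5.33, 5.17 and 5.28 in control DM2 and 5.09, 4.93 and 5.34 in ERK3-depleted DM2, where the groups overlap. The summed CPM of the list, which its most abundant genes set, ran from 10620 to 11590 in control DM2 and from 11490 to 12690 in ERK3-depleted DM2. In bulk RNA, fewer differentiated cells and less RNA per cell cannot be told apart. Actc1, the cardiac actin of embryonic muscle, stood at 457, 574 and 605 CPM in control DM2 and 211, 167 and 377 in ERK3-depleted DM2, with no overlap. It rose 65.0-fold in control and 14.1-fold in ERK3-depleted cells (-2.21 ± 0.44, adjusted p = 0.0040; without the 2 libraries -1.63, adjusted p = 0.11). Myh3, embryonic myosin heavy chain, stood at 412, 396 and 437 CPM in control DM2 and 224, 198 and 384 in ERK3-depleted DM2. Its interaction was -1.88 ± 0.55 (adjusted p = 0.022; without the 2 libraries -1.37, adjusted p = 0.31). Lmod2, an actin filament nucleator, had an interaction of -2.98 ± 0.57 (adjusted p = 0.0034; without the 2 libraries -2.56, adjusted p = 0.055). Myoz2, a Z-disc protein, lay at or below 0.10 CPM in control GM, so its fitted value of -3.02 ± 0.93 (adjusted p = 0.023; without the 2 libraries -2.46, adjusted p = 0.15) depends on low counts. Tmod4, which caps thin filaments, lay at or below 2.67 CPM throughout; it rose in ERK3-depleted cells and its control change was not called (2.51 ± 0.87, adjusted p = 0.039; without the 2 libraries 1.88, adjusted p = 0.33).

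Of 31 genes of calcium handling and excitation coupling, 8 were called lower and 1, S100a1, higher, 29.0% beside 28.6% of all genes. The median interaction was -0.42 (-0.39 without the 2 libraries, where 1 was called lower). Casq2 (ENSMUSG00000027861.13, chr3:102086415-102146514, plus strand; 2 other gene models overlap it on the same strand), the calsequestrin that buffers calcium in the sarcoplasmic reticulum, stood at 3.52, 2.42 and 3.10 CPM in control GM and 149, 150 and 166 in control DM2. It stood at 8.74, 3.89 and 4.66 CPM in ERK3-depleted GM and 39.9, 32 and 60.7 in ERK3-depleted DM2. The depleted libraries lie above control in GM and below it at DM2, with no overlap in either medium. Casq2 rose 51.8-fold in control and 7.68-fold in ERK3-depleted cells (interaction -2.75 ± 0.56, adjusted p = 0.0045; without the 2 libraries -2.30, adjusted p = 0.12). Atp2a1, the fast-muscle calcium pump, stood at 111, 115 and 120 CPM in control DM2 and 64.1, 67.6 and 83.4 in ERK3-depleted DM2 (-1.44 ± 0.41, adjusted p = 0.018; without the 2 libraries -1.23, adjusted p = 0.26). Srl, sarcalumenin of the calcium store, had an interaction of -1.59 ± 0.35 (adjusted p = 0.0053; without the 2 libraries -1.22, adjusted p = 0.15). Kcnn3, a calcium-activated potassium channel, reached 3.04 CPM at most and had the lowest interaction of the list (-3.87 ± 1.08, adjusted p = 0.015; without the 2 libraries -3.38, adjusted p = 0.13).

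The neuromuscular junction list held the largest share of calls among the muscle lists, where 28.6% of all genes were called. Of 17 genes 9 were called lower and 2 (Ncam1 and Utrn) higher (64.7%), and the median interaction was -0.92 (-0.82 without the 2 libraries, with 0 calls). The mean log2 CPM of the list was 5.71, 5.77 and 5.77 in control DM2 and 4.89, 4.87 and 5.13 in ERK3-depleted DM2, with no overlap. In GM it ran from 3.53 to 3.90 in control and from 3.80 to 3.88 in ERK3-depleted cells. Musk, the receptor kinase that clusters acetylcholine receptors, stood at 36.7, 42.4 and 40.3 CPM in control DM2 and 8.40, 8.38 and 14.2 in ERK3-depleted DM2, down to or below the GM levels of 11.3 to 20.4. It rose 2.83-fold in control and its change in ERK3-depleted cells was not called (interaction -2.08 ± 0.39, adjusted p = 0.0034; without the 2 libraries -1.62, adjusted p = 0.12). Sntb1, a syntrophin of the membrane scaffold, stood at 21.6, 27.3 and 22.9 CPM in control DM2 and 1.67, 2.54 and 4.97 in ERK3-depleted DM2 (-3.13 ± 0.61, adjusted p = 0.0037; without the 2 libraries -2.44, adjusted p = 0.094). Erbb3, a neuregulin receptor, had an interaction of -2.07 ± 0.56 (adjusted p = 0.013; without the 2 libraries -1.56, adjusted p = 0.16). The acetylcholine receptor subunits Chrng, Chrnd, Chrna1 and Chrnb1 were all called lower, from -1.14 to -0.53. Of 17 dystrophin complex and sarcolemma genes, 6 were called lower and 0 higher (35.3%, beside 28.6% of all genes), with a median of -0.45. Without the 2 libraries 0 were called in either direction and the median was -0.29. Those called with all libraries included the sarcoglycan Sgcd (-0.93 ± 0.20, adjusted p = 0.0049; without the 2 libraries -0.90, adjusted p = 0.092) and the dystrobrevin Dtna (-0.89 ± 0.19, adjusted p = 0.0049; without the 2 libraries -0.53, adjusted p = 0.13).

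**Figure D3:**
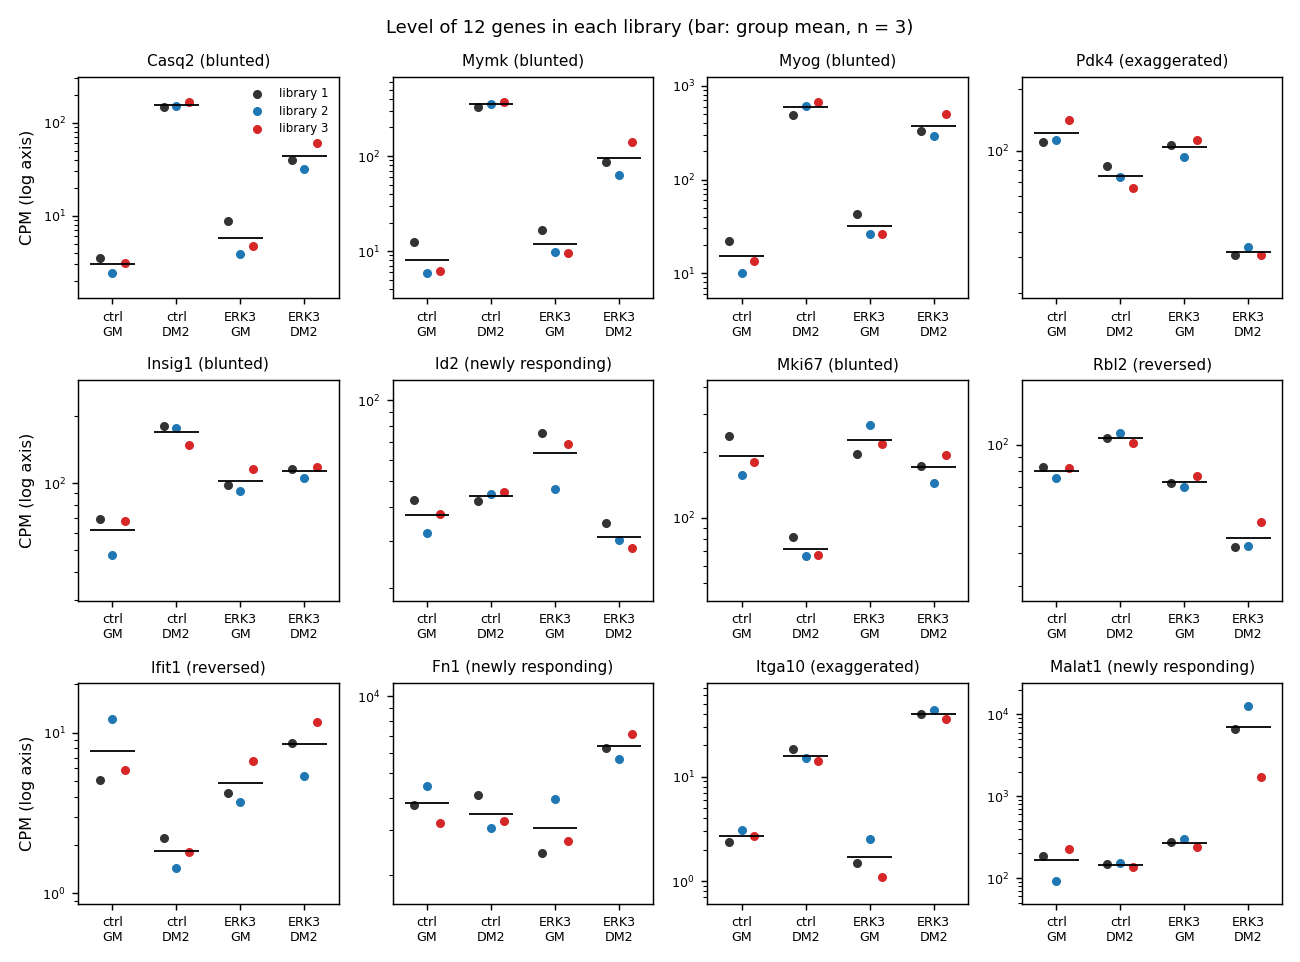
Level in CPM (log axis) of 12 genes in each of the 12 libraries, coloured by library number, with a bar at the group mean (n = 3). Casq2 reaches 149 to 166 CPM in control DM2 and 32 to 60.7 in ERK3-depleted DM2, while Pdk4 ends at 65.8 to 83.9 and 30.6 to 33.6.

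Pdk4 (ENSMUSG00000019577.6, chr6:5483351-5496309, minus strand), the kinase that turns off pyruvate dehydrogenase and a known FoxO target, fell in both lines and fell further in ERK3-depleted cells. It stood at 110, 112 and 142 CPM in control GM and 83.9, 74.5 and 65.8 in control DM2. It stood at 107, 93.4 and 113 CPM in ERK3-depleted GM and 30.6, 33.6 and 30.8 in ERK3-depleted DM2. The lines overlap in GM and are clear of each other at DM2, where the 3 depleted libraries lie close together. The fall was 1.62-fold in control and 3.29-fold in ERK3-depleted cells (interaction -1.02 ± 0.17, adjusted p = 0.0018; without the 2 libraries -1.07, adjusted p = 0.022). Over the 36 FoxO targets tested, 7 were called lower and 3 higher, 27.8% beside 28.6% of all genes, and the median interaction was 0.02. Rbl2, the pocket protein p130 that holds cells in quiescence, rose in control and fell in ERK3-depleted cells. It stood at 106, 110 and 102 CPM in control DM2 and 41.8, 42.4 and 51.9 in ERK3-depleted DM2, against 69.7 to 83.1 in GM. Its interaction was -1.08 ± 0.15 (adjusted p = 0.0011; without the 2 libraries -0.90, adjusted p = 0.027). Sod2, the mitochondrial superoxide dismutase, was also lower (-0.57 ± 0.12, adjusted p = 0.0048; without the 2 libraries -0.49, adjusted p = 0.092), and Pink1, a mitophagy kinase, higher (0.52 ± 0.19, adjusted p = 0.045; without the 2 libraries 0.26, adjusted p = 0.51). Of 24 genes of muscle energy metabolism, 5 were called lower and 0 higher, 20.8% beside 28.6% of all genes, and 1 was called without the 2 libraries. Ckm, muscle creatine kinase, rose 28.1-fold in control and 10.8-fold in ERK3-depleted cells (-1.38 ± 0.44, adjusted p = 0.027; without the 2 libraries -0.98, adjusted p = 0.31). Pfkm, the muscle phosphofructokinase, fell in ERK3-depleted cells from between 68.7 and 77 CPM to 32.9, 29.3 and 40.2 (-1.03 ± 0.17, adjusted p = 0.0020; without the 2 libraries -0.81, adjusted p = 0.053).

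Most cell cycle genes fell in both lines. Of 55 tested, 49 fell in control and 50 in ERK3-depleted cells, and in the interaction 7 were called lower and 4 higher (20.0%, beside 28.6% of all genes). The median interaction was -0.23 with all libraries and 0.07 without the 2 libraries, so its sign differed between the fits. The median difference of ERK3-depleted over control was 0.46 in GM and 0.34 at DM2. At DM2 the mean log2 CPM of the list was 5.35, 5.31 and 5.38 in control. It was 5.63, 5.18 and 5.83 in ERK3-depleted cells, where library 2 lies below all control libraries. Mki67, the gene of the proliferation antigen Ki-67, stood at 237, 158 and 180 CPM in control GM and 197, 268 and 220 in ERK3-depleted GM. At DM2 it stood at 81.7, 66.6 and 67.5 CPM in control and 173, 144 and 194 in ERK3-depleted cells, with no overlap. The fall was 2.66-fold in control and 1.34-fold in ERK3-depleted cells (interaction 0.99 ± 0.22, adjusted p = 0.0053; without the 2 libraries 1.17, adjusted p = 0.043). Pcna, the sliding clamp of DNA polymerase, stood at 54.6, 59.1 and 63.4 CPM in control DM2 and 30.0, 17.9 and 50.4 in ERK3-depleted DM2 (-1.33 ± 0.35, adjusted p = 0.012; without the 2 libraries -0.72, adjusted p = 0.18). Rrm2, a subunit of ribonucleotide reductase, had an interaction of -0.96 ± 0.27 (adjusted p = 0.015; without the 2 libraries -0.73, adjusted p = 0.22) and Cdk2 one of -1.02 ± 0.25 (adjusted p = 0.0075; without the 2 libraries -0.76, adjusted p = 0.16).

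Of 35 genes of sterol and fatty acid synthesis tested, 18 rose in control and 13 in ERK3-depleted cells, and 12 were called higher in ERK3-depleted GM. In the interaction 11 were called lower and 2 (Fasn and Acaca) higher (37.1%, beside 28.6% of all genes); without the 2 libraries 2 were called lower. The list had a median interaction of -0.33, and of -0.48 without the 2 libraries. The median difference between the lines was 0.41 in GM and 0.05 at DM2. Insig1, the sterol sensor that retains the SREBP activators in the endoplasmic reticulum (ENSMUSG00000045294.11, chr5:28071363-28078662, plus strand), stood at 69.4, 47.7 and 67.9 CPM in control GM and 98.3, 92.3 and 115 in ERK3-depleted GM. At DM2 it stood at 180, 177 and 148 CPM in control and 115, 106 and 118 in ERK3-depleted cells. The depleted libraries all lie above control in GM and all below it at DM2. Insig1 rose 2.73-fold in control and its change in ERK3-depleted cells was not called (interaction -1.30 ± 0.17, adjusted p = 0.00076; without the 2 libraries -1.24, adjusted p = 0.016). The difference between the lines was called in each medium, at 0.73 ± 0.12 in GM and -0.57 ± 0.12 at DM2 (adjusted p = 0.0079 for the first and 0.00064 for the second). The pathway's epoxidase Sqle (-0.58) and the activator Srebf1 (-0.87) were called lower too. The desaturase Fads2 (-1.28 ± 0.33, adjusted p = 0.010; without the 2 libraries -0.72, adjusted p = 0.22) and the sterol carrier Stard4 (-0.88 ± 0.20, adjusted p = 0.0054; without the 2 libraries -0.82, adjusted p = 0.076) fell in ERK3-depleted cells, and their control changes were not called.

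Of 30 genes of endoplasmic reticulum stress and the ATF4 amino acid response, 14 were called lower and 1 higher (50%, beside 28.6% of all genes). The median interaction was -0.36 with all libraries and -0.24 without the 2 libraries. Fgf21, a stress hormone made by muscle, rose from about 1 CPM to 23.6, 29.5 and 38.5 in control and to 10.1, 6.45 and 17.0 in ERK3-depleted cells (-1.89 ± 0.63, adjusted p = 0.033; without the 2 libraries -1.29, adjusted p = 0.26). Phgdh, the first enzyme of serine synthesis, rose in control and fell in ERK3-depleted cells (-1.15 ± 0.27, adjusted p = 0.0076; without the 2 libraries -0.85, adjusted p = 0.20). Asns, Slc7a5, Psat1 and Mthfd2, ATF4 targets of amino acid supply, were called lower, from -1.14 to -0.76. Ddit3, the stress factor CHOP, was the exception and ended at 119, 143 and 72.8 CPM in ERK3-depleted DM2 against 36.9, 41.9 and 37.3 in control (1.15 ± 0.25, adjusted p = 0.0051; without the 2 libraries 0.52, adjusted p = 0.13).

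**Figure D4:**
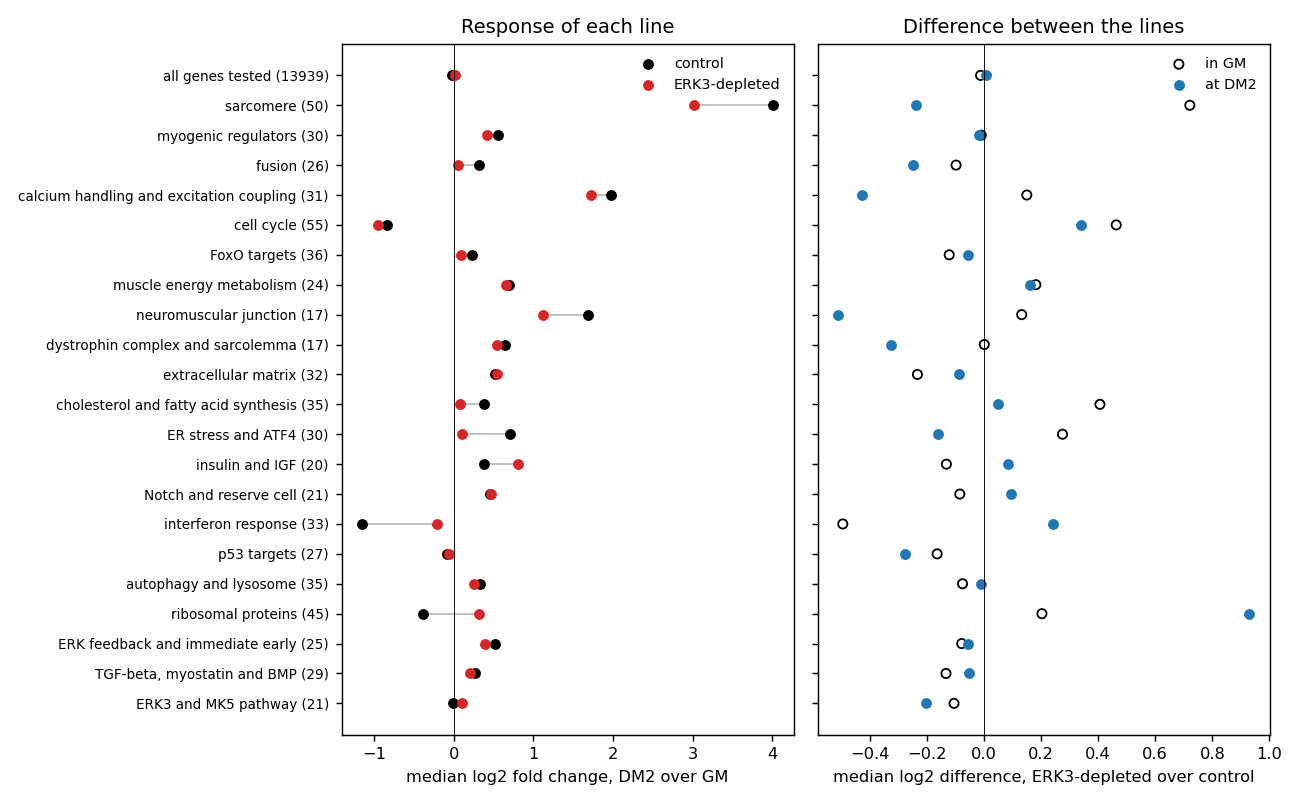
Left, the median log2 change from GM to DM2 of each gene list (tested genes in brackets) in control and ERK3-depleted cells. Right, the median log2 difference of ERK3-depleted over control in GM and at DM2; sarcomere genes lie at 0.72 in GM and -0.24 at DM2, and ribosomal protein genes at 0.20 and 0.93.

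More interferon-response genes fell on differentiation in control than in ERK3-depleted cells by count. Of 33 tested, 24 fell in control and 10 in ERK3-depleted cells. In the interaction 10 were called higher and 2 (Trim25 and Ifit2) lower, 36.4% beside 28.6% of all genes. The median interaction was 0.75, and 0.79 without the 2 libraries, where 5 were called higher and 0 lower. The mean log2 CPM of the list was 2.37, 2.98 and 2.52 in control GM, 1.63, 1.69 and 1.59 in control DM2, 2.04, 2.20 and 2.29 in ERK3-depleted GM and 1.93, 1.88 and 2.07 in ERK3-depleted DM2. Depleted libraries lie below control in GM and above it at DM2, without overlap. Ifit1, an antiviral RNA-binding protein, stood at 5.07, 12.2 and 5.86 CPM in control GM and 2.22, 1.44 and 1.82 in control DM2. It stood at 4.24, 3.69 and 6.69 CPM in ERK3-depleted GM and 8.57, 5.40 and 11.6 in ERK3-depleted DM2. The fall of 4.25-fold in control was a rise of 1.76-fold in ERK3-depleted cells (interaction 2.90 ± 0.50, adjusted p = 0.0025; without the 2 libraries 3.34, adjusted p = 0.016). Ccl5, a chemokine, lay at 0.29, 0.42 and 0.19 CPM in control DM2 and at 1.73, 1.43 and 2.2 in ERK3-depleted DM2 (3.26 ± 0.52, adjusted p = 0.0018, and 0.016 without the 2 libraries). The chemokine Cxcl10, at most 2.00 CPM, was called in both fits as well (2.54 ± 0.70, adjusted p = 0.014, and 0.036 without the 2 libraries). Without control GM library 2 it was not called (2.06, adjusted p = 0.051).

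Of 32 extracellular matrix genes, 5 were called higher and 2 lower, 21.9% beside 28.6% of all genes, and 4 were still called higher without the 2 libraries. Fn1, fibronectin, stood at 4105, 3065 and 3267 CPM in control DM2 and 6288, 5713 and 7128 in ERK3-depleted DM2, while in GM the lines overlapped. It rose 2.09-fold in ERK3-depleted cells and its control change was not called (interaction 1.2 ± 0.22, adjusted p = 0.0030; without the 2 libraries 1.35, adjusted p = 0.024). Fbn1, fibrillin of microfibrils, rose 1.41-fold in control and 2.99-fold in ERK3-depleted cells (1.09 ± 0.20, adjusted p = 0.0030, and 0.0092 without the 2 libraries). Col6a3, a chain of collagen VI, fell 1.86-fold in control and did not change by call in ERK3-depleted cells (0.89 ± 0.20, adjusted p = 0.0054, and 0.018 without the 2 libraries). Itga10, a collagen-binding integrin, was among the most exaggerated genes. It stood at 18.3, 15.0 and 14.2 CPM in control DM2 and 40.2, 43.8 and 36.0 in ERK3-depleted DM2, from 1.10 to 3.07 in GM. The rise was 5.81-fold in control and 23.2-fold in ERK3-depleted cells (2.00 ± 0.35, adjusted p = 0.0026; without the 2 libraries 1.84, adjusted p = 0.041). Another gene model overlaps Itga10 on the same strand.

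Genes of growth factor signalling were mixed. Of 20 insulin and IGF genes, 6 were called higher and 3 lower, with Igf1r, the receptor of IGF1, higher (1.12 ± 0.20, adjusted p = 0.0030; without the 2 libraries 0.65, adjusted p = 0.054) and Igf2, an autocrine factor of differentiating myoblasts, lower (-1.28 ± 0.41, adjusted p = 0.029; without the 2 libraries -0.98, adjusted p = 0.36). Hgf, the ligand of the Met receptor, fell in both lines, to 9.86, 17.1 and 13.2 CPM in control and 1.22, 1.92 and 3.25 in ERK3-depleted DM2 (-1.80 ± 0.47, adjusted p = 0.011; without the 2 libraries -1.20, adjusted p = 0.33). Of 25 genes of ERK feedback and immediate early response, 5 were called higher and 2 lower, 28%. Phlda1, an early response gene, rose 1.37-fold in control and 2.48-fold in ERK3-depleted cells, to 175, 160 and 139 CPM (0.86 ± 0.14, adjusted p = 0.0018; without the 2 libraries 0.67, adjusted p = 0.041). Dusp4, a nuclear phosphatase of ERK, rose in control and fell in ERK3-depleted cells (-1.30 ± 0.29, adjusted p = 0.0053; without the 2 libraries -0.70, adjusted p = 0.11). Of 29 genes of TGF-beta, myostatin and BMP signalling, 6 were called lower and 3 higher, and of 21 Notch and reserve cell genes 3 higher and 2 lower. Dll1, a Notch ligand, had an interaction of -1.07 ± 0.32 (adjusted p = 0.021; without the 2 libraries -0.80, adjusted p = 0.26). Of 21 genes of the ERK3 and MK5 pathway, 5 were called higher and 2 lower; Mapk12, the p38 gamma kinase of muscle, rose from between 32.1 and 35.1 CPM to 71.7, 79.0 and 50.2 in ERK3-depleted cells and was not called in control (0.92 ± 0.17, adjusted p = 0.0032; without the 2 libraries 0.50, adjusted p = 0.072). Of 27 p53 targets, 4 were called higher and 1 lower (18.5%). Of 35 autophagy and lysosome genes, 5 were called higher and 7 lower (34.3%, beside 28.6% of all genes). Map1lc3a and Gabarap, which coat autophagosomes, were higher (1.28 ± 0.26 and 0.97 ± 0.25), with values of 0.74 and 0.46 that were not called without the 2 libraries, while Atg9a, the lipid scramblase of that pathway, was lower (-2.29 ± 0.48, adjusted p = 0.0045; without the 2 libraries -1.38, adjusted p = 0.084).

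The ribosomal protein genes and several nuclear noncoding RNAs moved with ERK3-depleted DM2 libraries 1 and 2. Of 45 ribosomal protein genes, 33 were called higher and 0 lower (73.3%, beside 28.6% of all genes). The mean log2 CPM of the list in ERK3-depleted DM2 was 7.56 and 7.63 in libraries 1 and 2 and 7.14 in library 3, against 6.51 to 6.64 in control DM2. The median interaction was 0.63 and, without the 2 libraries, 0.33, with 1 gene, Rpsa, called. Rpsa stood at 594, 665 and 349 CPM in ERK3-depleted DM2 and 188, 209 and 212 in control DM2 (1.29 ± 0.23, adjusted p = 0.0026, and 0.046 without the 2 libraries). Ribosomal protein genes have near-identical copies in the genome, and their counts of uniquely mapped reads are uncertain for that reason. Malat1, a nuclear noncoding RNA, lay at 6580, 12660 and 1702 CPM in ERK3-depleted DM2 and at 150, 152 and 137 in control DM2. The lowest depleted value is library 3, and its interaction was 4.88 ± 0.96 with all libraries (adjusted p = 0.0043) and, without libraries 1 and 2, 2.84 (adjusted p = 0.16). Kcnq1ot1, an antisense RNA of the imprinted Kcnq1 domain, followed the same order at 19.3, 39.1 and 8.28 CPM (5.03 ± 1.09, adjusted p = 0.0053; without the 2 libraries 3.60, adjusted p = 0.067). Neat1, the scaffold of paraspeckles, fell in control to 31.4, 20.3 and 10.8 CPM and stood at 158, 261 and 87.1 in ERK3-depleted DM2 (2.96 ± 0.94, adjusted p = 0.030; without the 2 libraries 2.00, adjusted p = 0.40). Zfhx3, a large homeobox factor, also ranked by library, at 124, 154 and 71.8 CPM against 28, 27.8 and 24.8 in control DM2. Its interaction was called in both fits (2.30 ± 0.31, adjusted p = 0.00088; without the 2 libraries 1.59, adjusted p = 0.016). Atp7a and Slc8a1 were highest in library 3 of the ERK3-depleted DM2 group. Atp7a, a copper pump, stood at 1.22, 1.68 and 5.08 CPM in ERK3-depleted DM2 and 24, 22.9 and 21.1 in control DM2 (-2.72 ± 0.54, adjusted p = 0.0038; without the 2 libraries -1.80, adjusted p = 0.11). Slc8a1, a sodium-calcium exchanger, stood at 0.78, 1.74 and 4.51 CPM against 19, 21.6 and 23.0 (-2.56 ± 0.55, adjusted p = 0.0050; without the 2 libraries -1.63, adjusted p = 0.12).

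**Figure D5:**
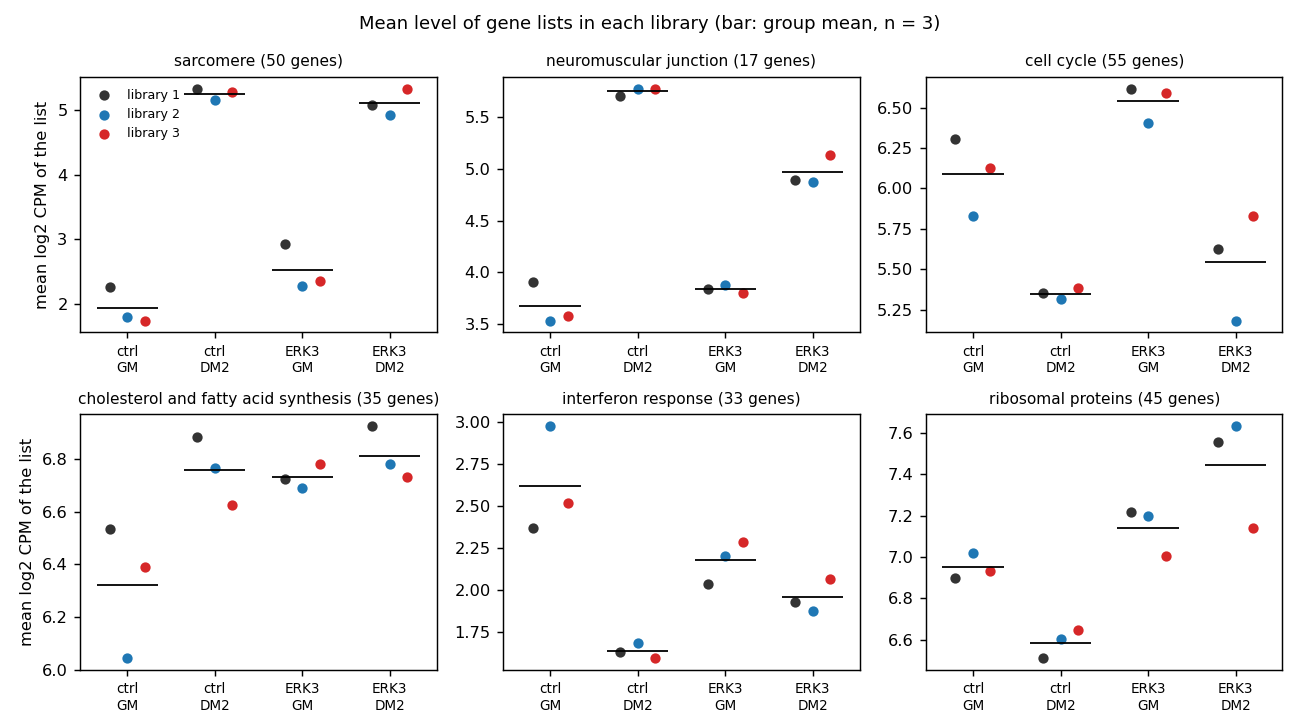
Mean log2 CPM of 6 gene lists in each library, coloured by library number, with a bar at the group mean (n = 3). The ribosomal protein list lies at 7.56, 7.63 and 7.14 in the ERK3-depleted DM2 libraries, and the neuromuscular junction list at 4.89, 4.87 and 5.13 against 5.71 to 5.77 in control DM2.

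Markers of other cell types were looked at in the same libraries. Of 9 endothelial markers 8 lay under 1 CPM in all 12 libraries, as did 8 of 10 immune, 7 of 10 adipocyte and 5 of 9 epithelial markers, with Pecam1, Ptprc, Adipoq and Epcam among them. Epcam, Adgre1 and Tie1 had 0 counts in all 12. Summed immune markers ran from 1.34 to 1.58 CPM in control DM2 and from 2.28 to 3.91 in ERK3-depleted DM2. Summed fibroblast markers ran from 757 to 811 CPM in control DM2 and from 669 to 757 in ERK3-depleted DM2. In GM they ran from 961 to 1153 CPM in control and from 822 to 1024 in ERK3-depleted cells. Of the 9 tested, 2 (Pi16 and Ly6a) were called higher in the interaction and 0 lower, 22.2% beside 28.6% of all genes. The median interaction was 0.66 (0.64 without the 2 libraries), and 4 of these markers were called lower in ERK3-depleted GM. Of 8 smooth muscle markers tested, 3 were called higher and 1, Synpo2, lower, while the defining markers Myh11 and Myocd lay under 1 CPM; the list summed to between 9099 and 10040 CPM in control DM2 and between 10010 and 10950 in ERK3-depleted DM2. Of 8 neural markers tested, 2 were called higher and 0 lower, and the list of 12, with Snap25 at 0 in all libraries, summed to between 59.6 and 116 CPM in control DM2 and between 144 and 245 in ERK3-depleted DM2. Cnn1, calponin, stood at 57.0, 30.1 and 67.7 CPM against 23.8, 10.9 and 14.2 in control DM2 (1.58 ± 0.37, adjusted p = 0.0070, and 0.019 without the 2 libraries). Actg2, the enteric smooth muscle actin, stood at 394, 299 and 490 CPM against 234, 154 and 204 (0.81 ± 0.22, adjusted p = 0.012, and 0.018 without the 2 libraries). Sox9, a cartilage factor, was called higher with all libraries (1.17 ± 0.27, adjusted p = 0.0059; without the 2 libraries 0.57, adjusted p = 0.20). The interaction was called for 50% of the smooth muscle and 25% of the neural markers tested, beside 28.6% of all genes. The part of other cell types in the results was not tested.

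The ERK3-depleted response was compared with that of the MK5-depleted line, which shares no library with it. No gene of 13939 was called (0%; edgeR), and DESeq2 called 0 as well; 1017 genes (7.30%) had an unadjusted p under 0.05, and the smallest adjusted p was 0.23. This does not show that the responses are alike. MK5-depleted DM2 libraries 1 and 2 also held more reads outside genes, 3.96 and 4.11%, than library 3, 2.84%. Malat1 stood at 2606, 2502 and 496 CPM in these libraries. The part of such a library difference in the comparison was not tested. Without ERK3-depleted DM2 library 3, 347 genes were called. The log2 response of Casq2 differed by -0.93 ± 0.55 from MK5-depleted to ERK3-depleted cells (adjusted p = 0.78), and that of Mymk by -1.26 ± 0.62 (adjusted p = 0.70). In MK5-depleted DM2 Casq2 stood at 44.0, 35.6 and 75.3 CPM and Mymk at 119, 87.1 and 225, overlapping the ERK3-depleted values. Pdk4 stood at 25.4, 31.5 and 26.3 CPM there, and its response differed by 0.18 ± 0.17 (adjusted p = 0.84).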

How the data were processed

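The authors deposited raw counts of uniquely mapped reads per gene. The submitters' processing notes name bcl2fastq 2.17, STAR 2.5.1b, RSEM 1.2.28 and the build GRCm38. The reverse-strand column was used, which held 92.8 to 95.3% of stranded gene counts. The authors also deposited RSEM expected counts and TPM. Expected counts, rounded, served as an alternative, and the authors' TPM were not used in a test. Summary lines (21.7 to 35.8% of reads) were left out. Symbols and GRCm38 positions came from GENCODE M21, which matched 50376 of 50600 identifiers. The depth limits genes near 1 CPM most.

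edgeR 4.0.16 (R 4.3.3) was fitted to all 18 libraries with 6 group means, TMM scaling and filterByExpr (13939 genes; 12 residual degrees of freedom, biological coefficient of variation 0.110). Quasi-likelihood p-values were adjusted by Benjamini-Hochberg over all genes in each contrast, and a gene was called under 0.05. Values after ± are standard errors. CPM use TMM-scaled library sizes; log2 CPM add a prior count of 2. Rose and fell mean called.

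Genes are named by rule: Mapk6, Mapkapk5, Foxo3, Casq2, Mymk and Pdk4; per class and direction the 3 called genes with the largest interaction and at least 5 CPM; and up to 4 called members of each primary list or 3 of each other list. Some genes given only by value within a list, Sqle among them, were chosen after their values were seen. The members, lists and rule were chosen with earlier results of these data known. Some items that the rule names are not reported here.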

Additional observations from a re-analysis of the deposited data

Results flagged for a closer look

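The response to differentiation medium differed between the ERK3-depleted and control lines for 3983 genes (28.6%), by the test of the interaction itself. Of the 112 named genes 108 were called. The naming rule picks most genes because they were called, so that share is no result. Of these 108, 20 were also called without ERK3-depleted DM2 libraries 1 and 2: Pdk4, Itga10, Pi16, Ifit1, Zfhx3, Id2, Cdh2, Mki67, Rbl2, Fn1, Fbn1, Col6a3, Insig1, Ccl5, Cxcl10, Rpsa, Phlda1, Id3, Cnn1 and Actg2. In the fit with the percentage of outside reads as a covariate 18 of the 20 were called, all but Cdh2 and Rpsa. ERK3-depleted DM2 libraries 1 and 2 hold the highest values of that covariate, so the covariate fit is no separate check.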

How the results depend on the processing

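Of the 108 called named genes 107 kept their sign under every alternative run, and 73 were called whichever single library was left out. The exception in sign was Rbpj, at -0.0356 on RSEM expected counts. Of the named genes not called, Mapkapk5 became 0.19 on RSEM expected counts and ran from -0.224 to 0.0900 with 1 library left out. Foxo3 became 0.147 with the covariate and 0.0787 without the 2 libraries and ran from -0.113 to 0.0300 with 1 library left out, and Myf5 became 0.0699 with the covariate. The cause was not tested.

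Leaving out ERK3-depleted DM2 libraries 1 and 2 together, an alternative chosen after seeing the data, gave 155 called genes, 96 higher and 59 lower, sorted as 65 blunted, 16 exaggerated, 37 reversed and 37 newly responding. The percentage of outside reads as a covariate gave 200, 124 higher and 76 lower, sorted as 85, 23, 39 and 53. With 1 library left out the called genes ran from 2459 to 5835, higher from 1222 to 2875, lower from 1117 to 2960, blunted from 802 to 1603, exaggerated from 128 to 604, reversed from 172 to 872 and newly responding from 1030 to 2614. Calls fell to 2556 without ERK3-depleted DM2 library 1, 2459 without library 2 and 2537 without ERK3-depleted GM library 3. The comparison with MK5 ran from 0 to 347 calls, and gave 279 with no low-count filter.

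The replicate numbers were not taken to pair the samples, which asked for a correlation of deviations over 0.1 in every same-numbered pair. It was met in ERK3-depleted cells, at 0.156 to 0.291 with different-numbered pairs at most 0.0174, and not in control, at -0.0209 to 0.172. With the replicate block within each line 4675 genes were called, with 422 exaggerated and 620 reversed; with the replicate block across all groups 4929, with 452 and 589; with length and GC trends removed and the block within each line 4278, with 474 exaggerated. RLE size factors (3968), no filter (4102), a filter of 1 CPM (3961), only the 12 libraries (3618), unstranded counts (4093), RSEM (3963), length and GC trends removed (3640) and DESeq2 (4264) moved the count of calls by less than 1.5 times.

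With 1 library left out, calls were lost for Rbm24, Neat1 and Tmod4 (8 single libraries each), Pink1 (9), Fgf21 and Igf2 (7), Ckm (6), Dock1 and Myh3 (4), Atp2a1, Dll1 and Myoz2 (3), with adjusted p up to 0.18.

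Genes near or under 1 CPM, such as Mapkapk5 and Ccl5, are limited by depth.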
